A study of Picea abies with 40 samples.

Results

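Zone 2 peak genes are the Norway spruce (Picea abies) genes whose transcript level was highest in zone 2, the second of 4 segments counted from the tip of the seedling root. A gene was kept if its mean over the 5 zone 2 libraries was at least 5 CPM (each count divided by its library's total and scaled to a common library size) and at least 2 times its mean in each of the other zones. The kept genes were ranked by the log2 ratio of the zone 2 mean to the next highest zone mean, with 1 CPM added to both, and a limit of 80 genes was not reached. The rule kept 66 genes of the 70736 listed and of the 17414 that had at least 5 CPM in zone 2. Because the zone 2 values chose these genes, zone 2 against any other zone is given as a description with no test.

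All roots came from seedlings grown on plates to about 2 days after germination, with no treatment or genotype difference in the labels. Whole-root segments gave zone 1, zone 2, zone 3 and zone 4, with 5 libraries each; of these segments, 3 measured 1 mm and 1 measured 2 mm, and the sources do not say which. Laser capture microdissection, which cuts chosen cells out of a section, gave stele 1, stele 2, stele 3, ground tissue and the QC area, with 4 libraries each. The columns of the steles were assigned to them by elimination, since they carry a number but not the word stele. They are headed by the letter Z and that number, as the zone columns are, so stele 2 and zone 2 share a code. Whether each stele was cut from the zone of the same number is not stated. The labels do not say whether replicates were separate seedlings or pools, so p-values measure the spread between these libraries, which may be technical.

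A growing root tip holds dividing cells near its end, followed along the axis by cells that elongate and then by cells that differentiate, so genes that act at a given step reach their highest level at a given distance from the tip. The stele is the central cylinder in which the vascular tissue forms, and the ground tissue surrounds it. QC is not spelled out in the labels. The steles were taken, per the labels, from where cells elongate and differentiate; which number stands for which is not stated, nor which kinds of cell lie in zone 2. Genes are listed by ID alone, so no function is given for any of them, lists by pathway were not applied, and the labelled tissues were not checked against defining markers.

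Zone libraries held 3.53 to 7.25 M counts and captured libraries 4.94 to 11.99 M. The biological coefficient of variation was 16.02% among zone libraries and 48.2% among captured ones. Zone 3 replicate 2 and stele 1 replicate 3 stood apart in ways that touch these genes. For zone 3 replicate 2, over the 27701 other genes tested in the zone table, on an axis where 0 is the zone 2 mean and 1 the zone 3 mean, the library lay at 0.662, while the other 4 zone 3 libraries lay at 0.942 to 1.15 and the zone 2 libraries at -0.225 to 0.255. It was the highest zone 3 library for 51 of the 66 genes and the lowest for 0. Stele 1 replicate 3 was the lowest stele 1 library for 41 genes, and their summed level was 2248 CPM in it and 4640 to 6102 CPM in the other 3 stele 1 libraries.

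In zone 2 the genes spanned a wide range of levels. The zone 2 mean had a median of 18.4 CPM over the 66 genes and ran from 5.07 CPM for MA_131805g0010 to 3417 CPM for MA_10426186g0010. It was under 10 CPM in 25 genes and at least 100 CPM in 8. Levels here are per library total and not per gene length, so the levels of different genes are not ranked against each other. The zone 2 mean was a median of 2.40 times that of the next highest zone, from 2.00 to 5.67 times, and at least 3 times in 11 genes and at least 4 times in 6. A few peaks were thus far steeper than the rest.

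The first gene by rank was MA_114982g0010. It had 12.6, 4.99, 19.3, 11.1 and 14.3 CPM in zone 1, 71.6, 62.5, 64.7, 74.4 and 80.4 CPM in zone 2, 5.43, 30.6, 3.28, 8.83 and 10.6 CPM in zone 3, and 0.983, 0.206, 0.689, 0.203 and 0.211 CPM in zone 4. Every zone 2 library lay above every other library, the highest zone 3 value was that of replicate 2, and in zone 4 the gene was close to absent. MA_10433303g0010, the second by rank, averaged 8.07 ± 2.56, 51.0 ± 5.42, 9.06 ± 5.92 and 0.554 ± 0.501 CPM in zones 1 to 4 (SD, n = 5 each). MA_140859g0010 averaged 6.06 ± 2.12, 31.9 ± 4.77, 5.22 ± 4.14 and 0.124 ± 0.113 CPM over the same zones. Its zone 2 to zone 4 ratio, 257 times, was the largest of the 66 genes. Without replicate 2, the zone 3 means were 7.04 ± 3.31, 6.75 ± 3.30 and 3.47 ± 1.55 CPM for these 3 genes in the order given (SD, n = 4).

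MA_55521g0010 was the steadiest gene within zone 2, with 214, 209, 212, 194 and 214 CPM and a coefficient of variation of 4.03%. Its means were 49.9 ± 10.8 CPM in zone 1, 45.5 ± 22.5 CPM in zone 3 (36.1 ± 9.38 CPM without replicate 2) and 12.6 ± 2.80 CPM in zone 4. In MA_1726255g0010 the 5 zone 2 libraries had 8.21, 2.17, 11.6, 10.6 and 2.61 CPM, a coefficient of variation of 62.9%. The lowest of these lay below a zone 3 library, at 2.59 CPM, so this gene did not separate zone 2 library by library. MA_530154g0010 was close to it in spread, at 62.7%, because zone 2 replicate 3 had 27.4 CPM and the other 4 libraries 7.04 to 11.01 CPM. The median coefficient of variation over the 66 genes was 18.4%.

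The remaining genes among the first 10 differed mainly in what happened outside zone 2. MA_458849g0010 averaged 45.1 ± 8.97, 180 ± 34.8, 54.6 ± 29.4 and 3.72 ± 0.657 CPM in zones 1 to 4, and MA_10168001g0010 averaged 27.6 ± 2.82, 90.6 ± 8.37, 29.01 ± 10.98 and 1.28 ± 0.363 CPM. Both stood at similar levels on the 2 sides of zone 2 and far lower in zone 4. MA_94228g0010 was nearly absent from zone 1, with 0.168 ± 0.189 CPM, and had 7.04 ± 1.47 CPM in zone 2, 1.49 ± 1.13 CPM in zone 3 and 0.231 ± 0.302 CPM in zone 4. MA_95757g0010 stood at similar levels in the other 3 zones: it averaged 24.8 ± 7.76 CPM in zone 1, 88.3 ± 16.7 CPM in zone 2, 30.4 ± 6.67 CPM in zone 3 and 28.8 ± 8.97 CPM in zone 4. Zone 3 means without replicate 2 were 42.9 ± 15.7 CPM for MA_458849g0010, 25.4 ± 8.56 CPM for MA_10168001g0010, 1.04 ± 0.599 CPM for MA_94228g0010 and 27.7 ± 3.07 CPM for MA_95757g0010 (SD, n = 4).

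For 52 of the 66 genes every zone 2 library lay above every library of the other zones. This held for 1.56% of the 27767 genes tested in the zone table, but the rule used these values, and nothing is read from the count. Without zone 3 replicate 2 the count was 62. At the edge of the rule, MA_492465g0010 had 44.0 CPM in zone 2 and 22.01 CPM in zone 3 and was kept, as was MA_3727547g0010 with a ratio of 2.01. MA_36564g0010, with 31.2 CPM in zone 2 and 15.6 CPM in zone 3, fell just short of 2 times, as did MA_255812g0010 with a ratio of 1.98. On the level, MA_131805g0010 at 5.07 CPM and MA_18439g0010 at 5.08 CPM lay just inside, and MA_730725g0010 at 4.70 CPM and MA_178653g0010 at 4.62 CPM just outside.

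**Figure D1:**
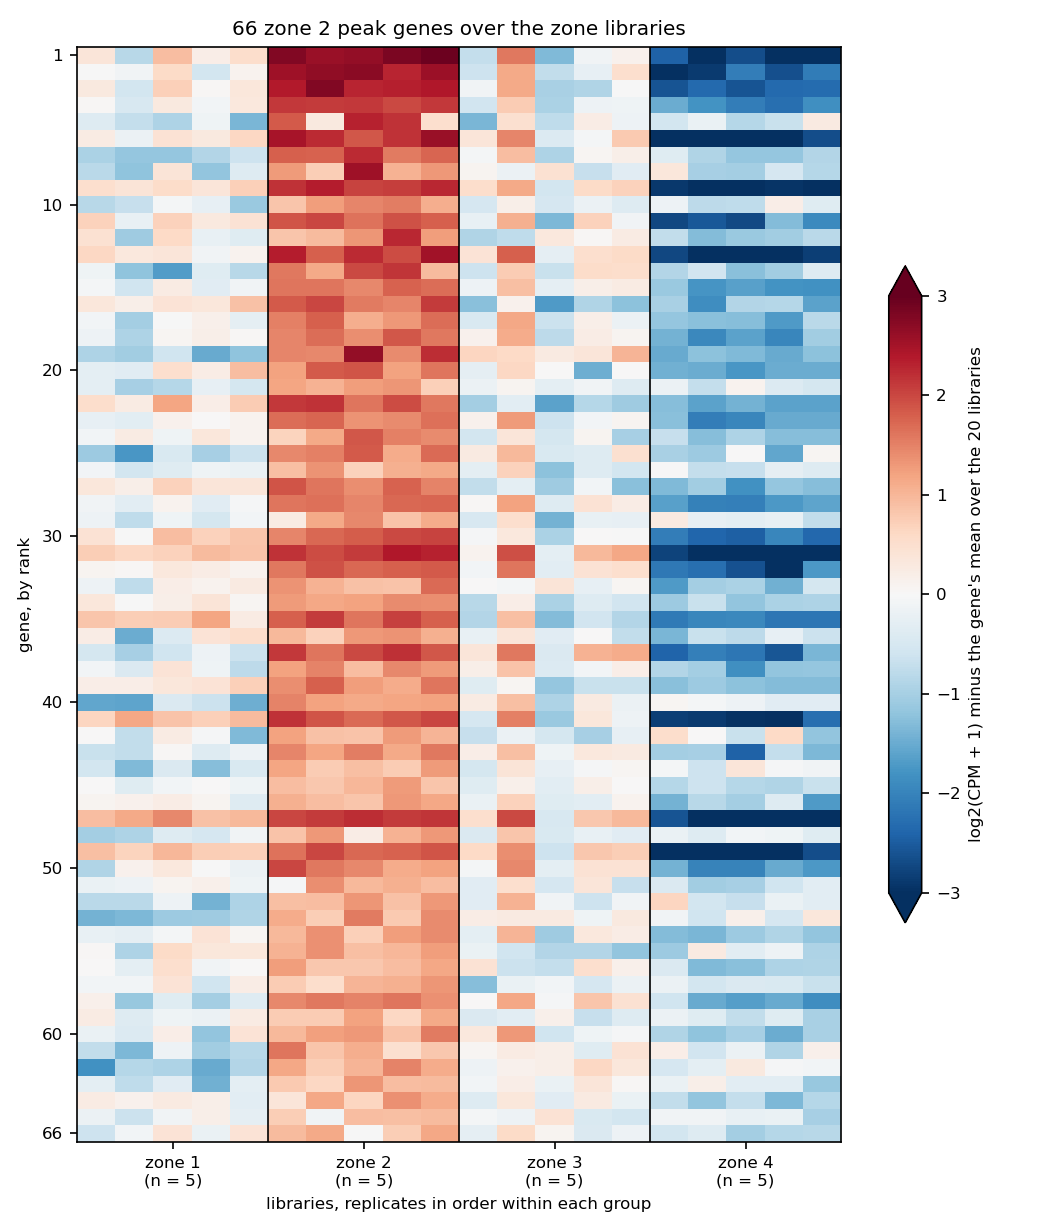
Each row is 1 of the 66 genes in order of rank and each column 1 of the 20 zone libraries, in the order zone 1 to zone 4; colour is log2(CPM + 1) minus the gene's mean over the libraries. Zone 2 is high by construction, zone 4 is the lowest zone for 49 genes, and zone 3 replicate 2 is the highest zone 3 library for 51 genes.

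Zone 4, which does not border zone 2, stood lowest for most of the genes, and it has no counterpart on the tip side. The rule used all these values, which are given as a description. The lowest zone was zone 4 for 49 genes, zone 1 for 15 and zone 3 for 2. The zone 2 mean was a median of 3.31 times that of zone 1, 2.66 times that of zone 3 and 10.2 times that of zone 4. It was at least 10 times the zone 4 mean in 33 genes, the zone 1 mean in 5 and the zone 3 mean in 2. In 21 genes the zone 4 mean was under 1 CPM. The next highest zone was zone 3 for 39 genes, zone 1 for 25 and zone 4 for 2, MA_61352g0010 and MA_21335g0010. Without zone 3 replicate 2 this order turned round, with zone 1 next for 33 genes, zone 3 for 26 and zone 4 for 7. The median ratio of zone 2 to zone 3 was then 3.18, close to the 3.31 for zone 1.

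Summed over the 66 genes, the share of each library differed in the same way. The sum was 2558 ± 220 CPM in zone 1, 7367 ± 363 CPM in zone 2, 3097 ± 1463 CPM in zone 3 and 796 ± 97.3 CPM in zone 4 (SD, n = 5 each). The zone 3 sum was 5538 CPM in replicate 2 and 1797 to 3023 CPM in the other 4 libraries, and these other 4 overlapped the zone 1 libraries, at 2223 to 2821 CPM. A single gene, MA_10426186g0010, held a large part of each sum. Without it the sums were 1204 to 1573 CPM in zone 1 and 3758 to 4274 CPM in zone 2. They were 990 to 2496 CPM in zone 3 and 540 to 627 CPM in zone 4. Zone 2 lay above every other library in both sums, but the rule chose the genes for high zone 2 values, and nothing is read from this.

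The rule holds zones 1, 3 and 4 below zone 2 but does not set which of them is higher, so these 3 zones were tested against each other, with edgeR's quasi-likelihood test on the counts of all 20 zone libraries and Benjamini-Hochberg adjustment over all 27767 tested genes at a threshold of 0.05. All 66 genes were tested, and all zone libraries carry the mark of sequencing lane 3, so no split by lane could be made. Zone 3 against zone 1 divided the genes. Of the 66, 20 were higher in zone 3 and 8 were lower, 30.3% and 12.1%. Over all tested genes 38.9% were higher and 35.2% lower. The rule used the means of these zones and drops genes highest in zone 1, 3 or 4, which stay among all tested genes. The gap between the shares may thus be set in part by the rule, and nothing is read from it. The median log2 fold change was 0.24 over the 66 genes and 0.077 over all tested genes. In 58 of the 66 genes the zone 3 mean was lower without zone 3 replicate 2. The 0.24 thus leans on that library, and no tilt of the set to zone 3 is read from it. Without zone 3 replicate 2, 16 were higher and 11 lower.

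MA_408047g0010 had 9.05, 15.3, 4.999, 5.30 and 10.6 CPM in zone 3, against 2.88, 1.48, 4.99, 3.18 and 4.32 CPM in zone 1. The groups met but did not overlap, and the log2 fold change was 1.52 ± 0.37 (SE; edgeR adjusted p = 0.00074). Without zone 3 replicate 2 the log2 fold change of MA_408047g0010 was 1.30 (edgeR adjusted p = 0.00277). The largest fitted differences lay in genes of low level, which were chosen after their values were seen. MA_94228g0010 rose by 3.13 ± 0.73 on the log2 scale (edgeR adjusted p = 0.000526) on 35 counts in zone 3 and 4 in zone 1. Zone 3 replicate 2 held 14 of the 35, and without it the rise was 2.69 (edgeR adjusted p = 0.00234). MA_108718g0010 fell, with a log2 fold change of -2.57 ± 0.43 (edgeR adjusted p = 1.18e-05), and averaged 0.600 ± 0.515 CPM in zone 3 (0.397 ± 0.282 CPM without replicate 2) and 3.68 ± 1.38 CPM in zone 1. MA_18900g0010 also fell, with a log2 fold change of -1.26 ± 0.33 (edgeR adjusted p = 0.0014), and averaged 3.39 ± 3.27 CPM in zone 3 and 8.37 ± 2.09 CPM in zone 1. With zone 3 replicate 2 left out, its zone 3 mean was 1.95 ± 0.589 CPM (SD, n = 4) and its log2 fold change -1.96 (edgeR adjusted p = 7.88e-08).

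Zone 4 stood below both other zones for most of the genes. Against zone 1, 44 of the 66 genes, 66.7%, were lower in zone 4 and 4 were higher, where 37.5% of all tested genes were lower and 40.6% higher; the median log2 fold change was -1.61 over the 66 genes and 0.052 over all tested genes. Against zone 3, 45 genes, 68.2%, were lower in zone 4 and 0 were higher. Of all tested genes 22.8% were lower and 26.1% higher, and the median was -1.97 against 0.037. All tested genes include those highest in zone 1, zone 3 or zone 4, which the rule drops. The gaps to all tested genes, the 0 included, may thus be set in part by the rule. For the 0 genes higher in zone 4 than zone 3, edgeR gave 0 at an unadjusted p under 0.05 and DESeq2 also gave 0 at its adjusted threshold. Without zone 3 replicate 2, 42 genes were lower in zone 4 than zone 3 and 0 higher. In these whole segments, fewer cells of a type that makes a transcript and less transcript per cell cannot be told apart.

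MA_111906g0010 had 7.38, 1.85, 2.48, 0 and 3.59 CPM in zone 4, against 70.6, 199, 35.2, 87.4 and 97.2 CPM in zone 3 and 94.1, 110, 136, 92.1 and 97.6 CPM in zone 1. No zone 4 library came near a library of the other zones. Its log2 fold change was -5.14 ± 0.43 against zone 3 (SE; edgeR adjusted p = 1.52e-09) and -5.16 ± 0.43 against zone 1 (edgeR adjusted p = 1.36e-10). MA_66021g0010 had 0.246, 0.206, 0.138, 0 and 0.844 CPM in zone 4, 7 counts in all, against 12.8, 18.7, 15.1, 13.6 and 16.2 CPM in zone 1, a log2 fold change of -5.67 ± 0.57 (edgeR adjusted p = 3.49e-09), which was -6.49 without zone 4 replicate 5. MA_18599g0030 averaged 0.439 ± 0.283 CPM in zone 4 and 18.8 ± 11.8 CPM in zone 3 (13.7 ± 3.47 CPM without replicate 2), with a log2 fold change of -5.45 ± 0.47 (edgeR adjusted p = 2.23e-09).

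The 4 genes that were higher in zone 4 than in zone 1 were MA_82826g0010, MA_142117g0010, MA_6025923g0010 and MA_10435468g0020; the last 3 are named because the count is small. MA_82826g0010 had 8.36, 7.61, 7.17, 6.09 and 6.12 CPM in zone 4, against 2.08, 2.03, 5.68, 4.77 and 2.28 CPM in zone 1, without overlap and with a log2 fold change of 1.08 ± 0.31 (edgeR adjusted p = 0.00313). MA_142117g0010 and MA_6025923g0010 had zone 4 means of 2.73 ± 1.02 and 2.28 ± 0.692 CPM and zone 1 means of 0.788 ± 0.270 and 0.584 ± 0.438 CPM. Their log2 fold changes were 1.84 ± 0.35 and 2.01 ± 0.43, with edgeR adjusted p of 5.27e-05 and 0.000178. MA_10435468g0020 overlapped between the zones, with a log2 fold change of 0.80 ± 0.24 (edgeR adjusted p = 0.0035).

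The captured libraries played no part in choosing the genes. Their values are CPM scaled by TMM factors within the captured table, and levels are not compared with the zones, because the tables were scaled separately and the RNA was extracted with another kit. Of the 66 genes, 64 passed the filter on low counts and were tested there among 27239 genes. Where a share is given of the 66 genes, it counts the untested ones as not passing. The 27239 genes were not held to 5 CPM in zone 2, so the shares beside them are not matched for level. MA_13745g0010 had no count in any captured library, although it averaged 9.76 CPM in zone 2, and MA_3797554g0010 had too few. In 18 of the 66 genes no captured region reached a mean of 5 CPM. Of these, MA_10433303g0010, MA_140859g0010, MA_18599g0030, MA_3992056g0010 and MA_10435468g0020 had at least 20 CPM in zone 2.

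Most of the genes were unevenly spread over the captured regions. With all 5 regions tested together, 58 of the 66 genes differed among them, 87.9%, against 56.6% of all genes tested. The 6 tested genes that did not pass were MA_140859g0010, MA_120821g0010, MA_62726g0010, MA_61352g0010, MA_502586g0010 and MA_10436505g0020. The mean was highest in stele 1 for 8 of the 64 tested genes, in stele 2 for 41, in stele 3 for 5, in ground tissue for 4 and in the QC area for 6. Over all tested genes the shares were 11.7%, 14.9%, 30.6%, 18.8% and 24%, so 64.1% of the zone 2 peak genes had their highest mean in the region that led for 14.9% of all genes. The lead of stele 2 was unequal. In MA_10210275g0010 it averaged 78.4 CPM against 77.7 CPM in stele 1, and in MA_82826g0010 13.5 CPM against 3.01 CPM there. MA_95757g0010 was counted for stele 2 on a single library, replicate 2 at 22.6 CPM. The number with stele 2 highest was 34 to 44 when each captured library was left out in turn and 37 with total counts in place of TMM. Stele 2 shares its column code with zone 2, so it may come from the segment that chose the genes, which was not tested.

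A stele had the highest mean for 54 of the 64 genes, 84.4%, where this held for 57.2% of all tested genes. The ground tissue libraries, named endo, and the QC area libraries all carry the number of stele 1 in their names. Stele 2 and stele 3 thus have no ground tissue or QC area library of their number. For them, tissue and position along the root cannot be told apart. In 28, 43.8%, all 3 stele means lay above those of ground tissue and the QC area, where 25.4% of all tested genes had this order. The lowest mean was that of the QC area for 39 genes, 60.9%, where the share of all tested genes was 23.9%. In both shares, a gene without a count in the QC area and in another region was counted for the other region. MA_10437176g0010 and MA_18599g0030 were such genes. Altogether 10 of the 66 genes had no count in any QC area library. In ground tissue and stele 3, 3 genes each had no count, in stele 1 there were 2 and in stele 2 there was 1. Counted by level, 38 genes reached a mean of 5 CPM in stele 1, 45 in stele 2, 34 in stele 3, 27 in ground tissue and 14 in the QC area.

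The summed level put stele 2 first. The 66 genes together made up 2248 to 6102 CPM in stele 1, 7138 to 10141 CPM in stele 2, 3550 to 5364 CPM in stele 3, 1747 to 2937 CPM in ground tissue and 822 to 1337 CPM in the QC area. All 4 stele 2 libraries lay above every other captured library, and all 4 QC area libraries below every other. By their names, all 4 stele 2 libraries were of lane 7 and all 4 QC area libraries of lane 8. Lane and region cannot be told apart between these regions, here or in the highest and lowest means above. The lowest stele 1 sum was that of replicate 3. Without MA_10426186g0010 the sums were 1907 to 5469 CPM in stele 1, 4998 to 7679 CPM in stele 2, 2469 to 3934 CPM in stele 3, 1045 to 1516 CPM in ground tissue and 769 to 1268 CPM in the QC area. The stele 2 and stele 1 ranges then overlapped, and so did those of ground tissue and the QC area.

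**Figure D2:**
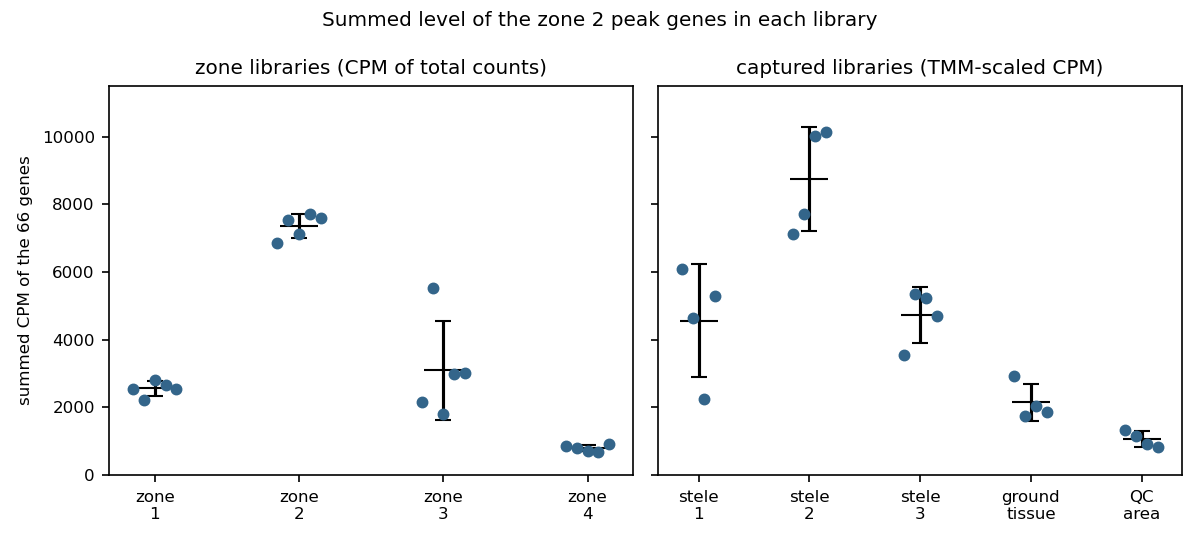
Summed CPM of the 66 genes in each of the 20 zone libraries (left) and the 20 captured libraries (right), with group means as short bars and SD as error bars. Zone 2 sums lie between 6866 and 7722 CPM by the choice of the genes, and stele 2 sums between 7138 and 10141 CPM, above all other captured libraries.

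**Figure D3:**
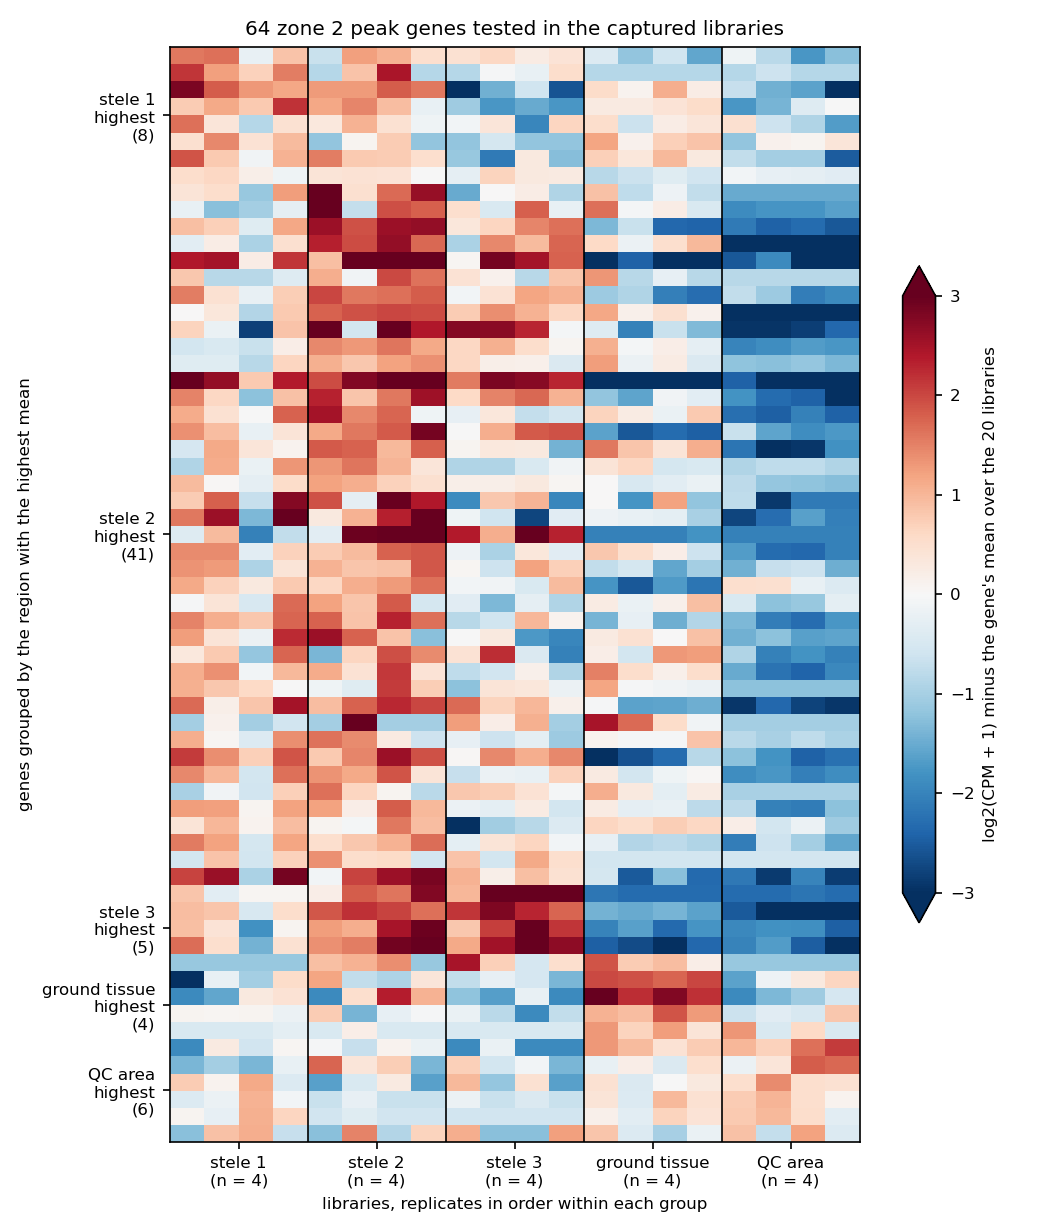
Each row is 1 of the 64 genes tested in the captured libraries, grouped by the region with the highest mean and ordered within it by the ratio to the next region, and each column is 1 of the 20 captured libraries; colour is log2(CPM + 1) minus the gene's mean over the libraries, cut at 3 in both directions. The group of 41 genes with stele 2 highest fills most of the plot, and the QC area columns are the lowest for 39 genes.

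Stele 1 and ground tissue were each set against the QC area, which asks how each of these tissues differed from the area labelled QC. Stele 1 was higher than the QC area in 42 of the 66 genes, 63.6%, where 8.42% of all tested genes were higher, and lower in 0, where 1.03% were lower. The median log2 fold change was 3.28 over the 64 tested genes, or 3.13 with a bound from 3 counts for 8 genes without a count in the QC area, and 0.054 over all tested genes. For the 0 genes lower in stele 1, edgeR gave 3 at an unadjusted p under 0.05, and DESeq2 gave 2 at its adjusted threshold. Libraries carry lane marks in their names. Lane 8 holds 2 of the stele 1 libraries and all 4 QC area libraries, and 26 genes were higher and 0 lower there, where 1.93% of all genes tested in that lane were higher and 0.643% lower. Without stele 1 replicate 3 the number higher was 44.

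MA_55521g0010 had 1710, 1049, 287 and 878 CPM in stele 1, against 30.4, 14.2, 6.20 and 8.85 CPM in the QC area and 12.1, 4.55, 6.09 and 18.3 CPM in ground tissue. Even the low stele 1 library, replicate 3, lay far above both. The log2 fold change of stele 1 was 6.04 ± 0.68 against the QC area (SE; edgeR adjusted p = 2.33e-05; 5.22 within lane 8 and 6.65 without QC area replicate 1) and 6.58 ± 0.70 against ground tissue (edgeR adjusted p = 1.11e-05; 8.14 within lane 7 and 5.54 within lane 8). It averaged 1597 ± 833 CPM in stele 2 and 903 ± 316 CPM in stele 3, and its differences between steles did not pass the threshold. MA_470779g0010 had 23.2, 7.51, 12.4 and 41.5 CPM in stele 1, against 0, 0.465, 0.0886 and 0 CPM in the QC area. Its log2 fold change of 7.06 ± 0.85 (edgeR adjusted p = 4.2e-05; 7.35 within lane 8) rests on 6 counts in the QC area, and was 8.81 without QC area replicate 2.

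Ground tissue was higher than the QC area in 19 of the 66 genes, 28.8%, and lower in 1, where 3.23% of all tested genes were higher and 1.51% lower. Over the tested genes of the set the median log2 fold change was 1.70, and over all tested genes it was 0.013. DESeq2 called 30 higher and 1 lower, and within lane 8, which holds 3 libraries of ground tissue and 4 of the QC area, 25 were higher and 1 lower, where 3.51% and 2.57% of all genes tested in that lane were. Of the 66 genes, 16 were higher than the QC area in both stele 1 and ground tissue, which was 25.0% of those tested and held for 1.93% of all tested genes; both comparisons use the same QC area libraries. MA_10426186g0010, which is named for its share of the sums, averaged 925 ± 342 CPM in ground tissue and 58.7 ± 7.31 CPM in the QC area, with a log2 fold change of 3.98 ± 0.31 (edgeR adjusted p = 1.9e-06).

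MA_194304g0010 had 13.8, 7.72, 12.9 and 18.4 CPM in ground tissue and no count in any QC area library. It was at least 183-fold higher in ground tissue, taking a floor of 3 counts over the QC area libraries (edgeR adjusted p = 3.62e-05; 0.000769 within lane 8). MA_56856g0010 had 37.7, 16.3, 24.7 and 16.03 CPM in ground tissue, against 0, 0.465, 0.797 and 1.63 CPM in the QC area, with a log2 fold change of 5.004 ± 1.22 (edgeR adjusted p = 0.0188). This call was lost without ground tissue replicate 1 (edgeR adjusted p = 0.0636), QC area replicate 1 (0.0613), replicate 2 (0.0747) or replicate 3 (0.0639), and the log2 fold change was 5.72 without QC area replicate 4 (edgeR adjusted p = 0.0331). MA_16152g0010 was the 1 gene that ran the other way. It had 135, 78.0, 141 and 100 CPM in ground tissue, against 659, 642, 396 and 345 CPM in the QC area, without overlap and with a log2 fold change of -2.17 ± 0.32 (edgeR adjusted p = 0.000432; 0.00183 within lane 8).

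Stele 1 was higher than ground tissue in 20 of the 66 genes, 30.3%, and lower in 2, where 4.78% of all tested genes were higher and 1.25% lower. Their median log2 fold change was 0.71, where that of all tested genes was 0.028. The counts were smaller within lanes: 5 higher and 0 lower in lane 7 (2 of stele 1 against a single library of ground tissue, assumed to vary like the others) and 7 higher and 0 lower in lane 8 (2 against 3). Of all genes tested in each lane, 1.11% were higher and 0.0835% lower in lane 7, and 0.960% and 0.441% in lane 8. There were 18 genes higher in stele 1 than in both ground tissue and the QC area, 28.1% of those tested, where 3.11% of all tested genes were; these comparisons share the stele 1 libraries. MA_114982g0010, first by rank in the zones, was among them. It had 94.0, 101, 20.1 and 79.1 CPM in stele 1, against 0.761, 2.37, 0 and 0.179 CPM in ground tissue, a log2 fold change of 6.46 ± 1.03 (edgeR adjusted p = 0.000524). It was 5.26 within lane 7 (edgeR adjusted p = 0.0612), 7.26 within lane 8 (0.0166) and 7.86 without ground tissue replicate 2.

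The 2 genes lower in stele 1 than in ground tissue were MA_492465g0010 and MA_18599g0030. MA_492465g0010 had 0.390, 9.97, 5.33 and 17.7 CPM in stele 1, against 49.2, 46.6, 41.5 and 50.2 CPM in ground tissue. The regions did not overlap, and the log2 fold change was -2.47 ± 0.67 (edgeR adjusted p = 0.0304). The call was fragile: it was lost within lane 7 (log2 fold change -3.19, edgeR adjusted p = 0.465), within lane 8 (-2.08, 0.2003), and when any 1 library other than stele 1 replicate 4 was left out (0.0521 to 0.0711). Without stele 1 replicate 4 the log2 fold change was -3.13 (edgeR adjusted p = 0.015). MA_18599g0030, named because the count is small, had no count in any stele 1 library and 7.17, 2.77, 3.19 and 1.52 CPM in ground tissue. With a floor of 3 counts over the stele 1 libraries it was at least 35.8-fold lower there (edgeR adjusted p = 0.0139).

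The steles were then set against each other. Stele 2 shares its column code with zone 2. The choice of the genes may thus enter every comparison with stele 2, which was not tested. Of the 64 tested genes, 47 had a fitted level in stele 2 above both other steles, 73.4%, where 20.4% of all tested genes did. MA_458849g0010 and MA_10426186g0010 passed both tests, 3.13% of the 64, where 0.184% of all tested genes passed both; the tests share the stele 2 libraries. Stele 2 was higher than stele 1 in 14 of the 66 genes, 21.2%, and lower in 1, where 12.4% of all tested genes were higher and 8.97% lower. The median log2 fold change was 0.50, against -0.051 over all tested genes. Without stele 1 replicate 3, 9 were higher and 0 lower. Lane 7 holds 4 libraries of stele 2 and 2 of stele 1; 3 genes were called there, all higher, where 2.00% of all genes tested in that lane were higher and 0.177% lower. Of the 63 genes tested there, 46 had a positive log2 fold change, as did 51.4% of all genes.

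MA_194304g0010 had 48.6, 36.8, 59.9 and 31.2 CPM in stele 2, against 6.82, 10.4, 4.10 and 12.7 CPM in stele 1, without overlap and with a log2 fold change of 2.38 ± 0.49 (edgeR adjusted p = 0.00315; 0.0235 within lane 7). MA_458849g0010 averaged 715 ± 148 CPM in stele 2 and 214 ± 81.4 CPM in stele 1, a log2 fold change of 1.74 ± 0.38 (edgeR adjusted p = 0.00342). MA_142117g0010 had 15.9, 14.2, 38.1 and 53.1 CPM in stele 2, against 12.3, 8.47, 1.03 and 6.46 CPM in stele 1. Its log2 fold change of 2.12 ± 0.62 (edgeR adjusted p = 0.0196) no longer passed without stele 1 replicate 4 (edgeR adjusted p = 0.0523) or stele 2 replicate 4 (0.0675), and within lane 7 it was 1.56 (0.271). It also missed the threshold with a replicate block (edgeR adjusted p = 0.0521), with lane as a covariate (0.0806) and with only the 2 steles in the fit (0.0702). The 1 gene lower in stele 2, MA_10436204g0030, had 2 counts there and 37 in stele 1 (edgeR adjusted p = 0.0135).

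Stele 3 was lower than stele 2 in 19 of the 66 genes, 28.8%, and higher in 0, where 9.16% of all tested genes were lower and 3.85% higher. At the median the log2 fold change was -1.20, where that of all tested genes was -0.11. For the 0 genes higher in stele 3, edgeR gave 1 at an unadjusted p under 0.05 and DESeq2 gave 0. The number of calls moved with single libraries: it was 8 without stele 2 replicate 3, 9 without stele 3 replicate 1 (8 lower and 1 higher, MA_6025923g0010), 11 without stele 3 replicate 4 and 12 without stele 3 replicate 2. Lane 7 holds 3 libraries of stele 3 and 4 of stele 2; there 2 genes passed, both lower, where 0.351% of all genes tested in that lane were higher and 0.478% lower. Of the 63 genes tested there, 57 had a negative log2 fold change, as did 53.6% of all genes.

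MA_111906g0010 had 0, 3.58, 7.29 and 1.07 CPM in stele 3, against 29.2, 29.2, 43.2 and 36.5 CPM in stele 2 and 86.8, 42.6, 29.9 and 26.8 CPM in stele 1. Both other steles lay above stele 3 library by library, with a log2 fold change of -3.51 ± 0.72 against stele 2 (edgeR adjusted p = 0.00394; 0.0361 within lane 7) and -3.94 ± 0.73 against stele 1 (edgeR adjusted p = 0.000254; 0.00286 within lane 7 and 0.00353 within lane 8). Without stele 3 replicate 3 these were -4.48 and -4.87. MA_10436713g0030 had 5.08, 3.39, 0 and 4.30 CPM in stele 3, against 7.13, 12.8, 32.5 and 131 CPM in stele 2. Its log2 fold change of -3.84 ± 1.04 (edgeR adjusted p = 0.0205) leaned on stele 2 replicate 4, without which it was -2.46 (edgeR adjusted p = 0.0772), and within lane 7 it was -4.16 (0.121).

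**Figure D4:**
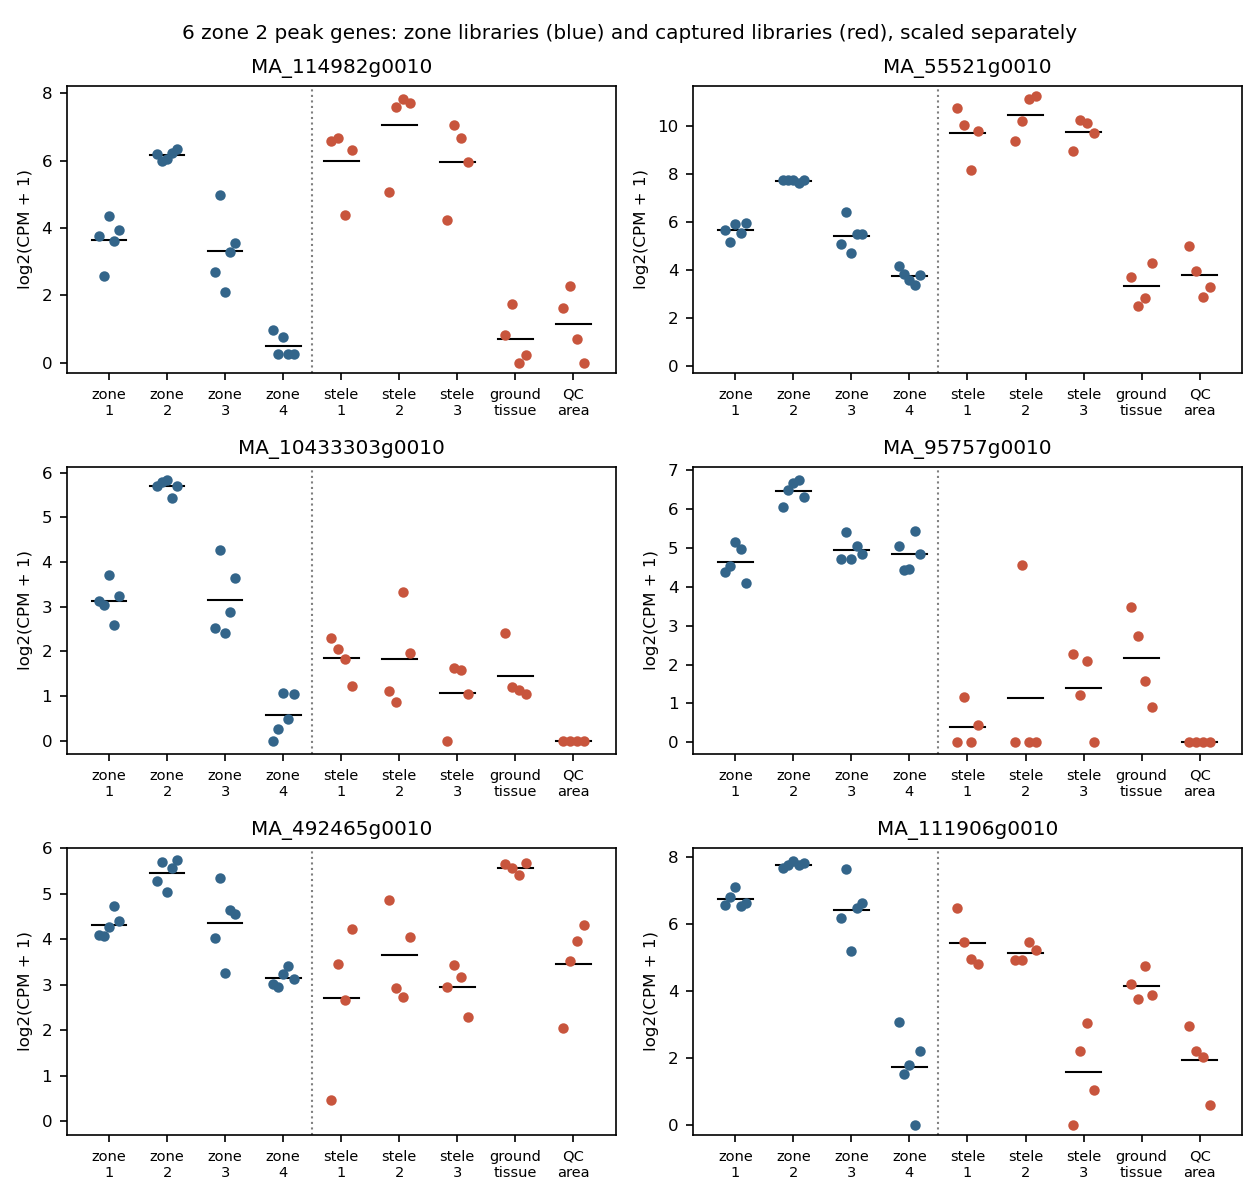
Log2(CPM + 1) of 6 genes in every zone library (blue, n = 5 each) and captured library (red, n = 4 each), with group means as bars; both tables were scaled separately, and the genes were chosen after their values were seen, to show unlike patterns. MA_55521g0010 and MA_114982g0010 are high in all 3 steles, MA_111906g0010 is low in stele 3, MA_492465g0010 is highest in ground tissue, and MA_10433303g0010 and MA_95757g0010 are low in most captured libraries.

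Stele 3 against stele 1 went both ways. Of the 66 genes, 10 were higher in stele 3 and 15 lower, 15.2% and 22.7%, both below the 20.9% and 25.2% over all tested genes. The median log2 fold change was -0.59, against -0.21 over all tested genes. With total counts in place of TMM, which moved the median of all genes to -0.60 and that of the 66 to -0.997, 6 were higher and 22 lower. Without stele 1 replicate 3, 6 were higher and 19 lower. Lane 7 (3 libraries of stele 3 against 2 of stele 1) gave 3 higher and 3 lower, and lane 8 (1 against 2) gave 3 higher and 5 lower. Of all genes tested in each lane, 7.66% were higher and 5.60% lower in lane 7, and 14.5% and 21.9% in lane 8; the lone stele 3 library was assumed to vary like the others.

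MA_6025923g0010 had 8.94, 51.8, 38.8 and 68.8 CPM in stele 3, against 7.80, 3.01, 4.20 and 4.14 CPM in stele 1, a log2 fold change of 3.15 ± 0.59 (edgeR adjusted p = 0.000271). Within lane 7 it was 3.33 (edgeR adjusted p = 0.0174), and within lane 8, whose stele 3 library is the one at 8.94 CPM, it was 1.07 (0.328). It had 1 count each in all of ground tissue and the QC area, and of the genes highest in stele 3 it had the largest ratio to the next region, with 1 CPM added to both means. MA_131805g0010 had 20.5, 7.72, 34.8 and 19.3 CPM in stele 3, against 2.14, 6.97, 0 and 1.46 CPM in stele 1, a log2 fold change of 2.97 ± 0.93 (edgeR adjusted p = 0.0149). It was 2.14 within lane 7 (edgeR adjusted p = 0.205), 4.82 within lane 8 (0.0306) and 4.18 without stele 1 replicate 2. MA_480961g0010 ran the other way, with 2.64, 20.2, 23.5 and 31.7 CPM in stele 3, against 55.6, 86.5, 46.2 and 81.3 CPM in stele 1. Its log2 fold change was -1.79 ± 0.48 (edgeR adjusted p = 0.00544), -1.51 within lane 7 (0.0633) and -4.61 within lane 8 (0.00046). No libraries of the 2 steles overlapped in any of these 3 genes.

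**Figure D5:**
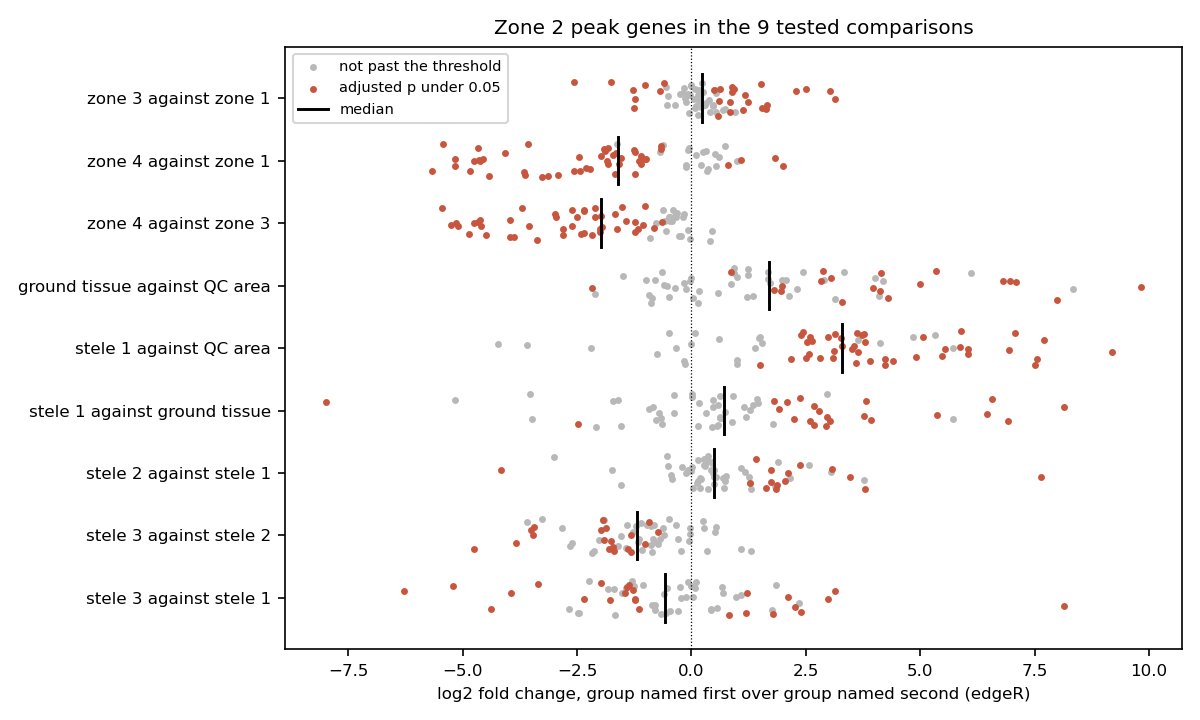
Log2 fold change (edgeR) of each tested gene in the 9 comparisons, the group named first over the group named second; red points passed the adjusted threshold, grey points did not, and the upright bar is the median. Zone 4 lies to the left of zones 1 and 3 with medians of -1.61 and -1.97, stele 1 to the right of the QC area with 3.28, and stele 3 to the left of stele 2 with -1.20; points of genes without a count in a group are fitted values and no bound.

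The side of zone 2 to which a gene leaned was set beside the steles, as counts only. Of the 37 genes with captured tests whose next highest zone was zone 3, 28 had their highest captured mean in stele 2, as did 13 of the 25 next highest in zone 1 and 0 of the 2 next highest in zone 4. Without zone 3 replicate 2 the counts were 17 of 24, 19 of 33 and 5 of 7. Of the 20 genes called higher in zone 3 than zone 1, 19 were tested in the captured libraries. Their highest mean lay in stele 2 in 14, 73.7%, and the same held for 5 of the 8 genes called lower, 62.5%; over all genes with these calls the shares were 24.3% and 4.07%. Stele 2 was highest for 11 of 15 and 7 of 11 without zone 3 replicate 2. Of the 19, 7 were higher and 1 lower in stele 3 than in stele 1, 36.8% and 5.26%, where 52.2% and 2.28% of all genes called higher in zone 3 were. Of the 8 called lower in zone 3, 0 were higher and 4 lower in stele 3, where 1.41% and 56.2% of all genes with that call were. The direction of the zone calls and that of the stele 3 calls went together over the whole table, so nothing particular to the zone 2 peak genes is read from these last counts. They were 5 higher and 1 lower of 15, and 0 higher and 5 lower of 11, without zone 3 replicate 2. No difference between these shares was tested, since the genes were chosen with such results known.

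In each region 1 gene had the largest ratio of its mean to that of the next region, with 1 CPM added to both. In stele 1 this was MA_10432460g0010, which averaged 9.03 ± 4.95, 6.32 ± 3.47 and 5.17 ± 0.685 CPM in steles 1 to 3, 1.48 ± 0.861 CPM in ground tissue and 1.51 ± 1.22 CPM in the QC area (SD, n = 4 each; edgeR adjusted p over the 5 regions = 0.00295). Its stele 1 libraries, at 12.7, 13.4, 2.87 and 7.19 CPM, overlapped those of stele 2 and stele 3. Without the added CPM, MA_108718g0010 had the larger ratio in stele 1, with means of 4.13 ± 2.15 CPM there and 2.79 ± 4.22 CPM in stele 2. In stele 2 it was MA_82826g0010, with 26.0, 3.00, 8.32 and 16.7 CPM there, means of 3.01 ± 2.27 and 1.20 ± 1.11 CPM in stele 1 and stele 3, 1.81 ± 1.67 CPM in ground tissue and no count in the QC area (edgeR adjusted p = 0.000216). Its lowest stele 2 library lay below the highest stele 1 library, at 5.85 CPM. The QC area led for MA_18900g0010, with 6.45, 5.11, 10.8 and 15.2 CPM, against 8.26, 6.23, 4.09 and 5.37 CPM in ground tissue and 0 to 3.55 CPM in the 12 stele libraries. Its QC area and ground tissue libraries overlapped, so the order of these 2 regions does not hold beyond their spread (edgeR adjusted p over the 5 regions = 0.00828; 0.908 for ground tissue against the QC area).

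Ground tissue led for MA_492465g0010, described above, whose mean of 46.9 ± 3.90 CPM there stood beside 8.34 ± 7.35 CPM in stele 1 and means of 7.11 to 13.99 CPM in the other regions. MA_95757g0010 and MA_10433303g0010, among the first 10 genes in the zones, were low in the captured libraries. MA_95757g0010 had a count in 2 stele 1 libraries, 1 stele 2 library at 22.6 CPM, 3 stele 3 libraries, all 4 ground tissue libraries at 0.896 to 10.2 CPM, and no QC area library. MA_10433303g0010 averaged 2.74 ± 1.08, 3.47 ± 3.80 and 1.29 ± 0.972 CPM in steles 1 to 3 and 1.98 ± 1.58 CPM in ground tissue, with no count in the QC area. MA_95757g0010, MA_61352g0010 and MA_10436505g0020 were the 3 genes called in none of the 9 comparisons.

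Gene IDs carry the scaffold on which the gene lies, and the 66 genes lay on 66 different scaffolds. In 10 of them, 15.2%, another listed gene shared the scaffold, against 25.1% of all listed genes and 18.3% of the genes with at least 5 CPM in zone 2. Of the 15 such neighbours, 2 had no count in the zones, 2 reached 5 CPM in zone 2 and 0 met the rule. Both that reached 5 CPM lay beside MA_18599g0030. MA_18599g0010 averaged 176, 127, 70.8 and 24.7 CPM in zones 1 to 4, and MA_18599g0020 averaged 2.57, 8.10, 5.45 and 1.81 CPM, so MA_18599g0020 also had its highest mean in zone 2, at under 2 times its zone 3 mean. Reads of near-identical or overlapping genes may be split or lost in such counts, and no sequence was used here to check for copies.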

How the data were processed

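The authors deposited raw read counts per gene for 70736 gene IDs, in 1 table of 20 zone libraries and 1 of 20 captured libraries. Trimmomatic, STAR and HTSeq were used, per the submitters' processing notes. Versions, genome build, annotation and strandedness were not given in the sources used here. Reads from genes that overlap, antisense ones included, therefore cannot be told apart. Zone RNA came from a chloroform and isoamyl alcohol extraction cleaned on RNeasy columns, and captured RNA from the RNAqueous-Micro kit, per the labels' protocols, so no zone was tested against a captured region. Library totals were 3.53 to 7.25 M counts for zones and 4.94 to 11.99 M for captured regions. Replicates differed by more than sampling noise, with a smallest chi-square per gene of 1.69, and none were merged.

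The members and lists were chosen with earlier results of these data known. Members were found on group means of counts scaled to the library total (CPM). The tables were then fitted separately in edgeR 4.0.16 (R 4.3.3): filterByExpr at its defaults (27767 and 27239 genes left), TMM factors of 0.926 to 1.07 and 0.753 to 1.23, glmQLFit on all groups of the table with the group as the only term, and glmQLFTest with Benjamini-Hochberg adjustment over all tested genes at 0.05. The SE is the log2 fold change divided by the square root of F. Zone values are CPM of total counts and captured values TMM-scaled CPM. A fold against a group without a count is a bound from a floor of 3 counts over the group. This floor covers counting error only and not the spread between libraries.

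Named genes are the first 10 by rank, the genes nearest both thresholds, up to 2 rises and 2 falls per comparison (past the threshold, 5 CPM or more averaged over both groups, no overlap), the gene standing out most in each region, the steadiest and least steady in zone 2, and genes without a captured count; others are said to be chosen after their values were seen. Alternatives were RLE size factors, total counts, DESeq2 1.42.0, no low-count filter, a replicate block, only the 2 groups in the fit, lane as a covariate, single lanes, each library left out, and other settings of the rule. Replicate numbers were checked as pairs by correlating deviations from group means. No tested comparison had all correlations above 0.1, so the tests did not pair libraries by number. Zones 3 and 2, which were not tested, had all 5 correlations above 0.1, at 0.135 to 0.350. Same-numbered zone libraries may thus be related, and the replicate block is the alternative that allows for it.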

Additional observations from a re-analysis of the deposited data

Results flagged for a closer look

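Dixon's criterion for a single library far from the rest of its group was met in 9 of the 147 groups examined, 6.12%. These were the groups of 28 named genes wherever the group mean was at least 5 CPM, and the summed level in each zone and region. Chance gives about 1 in 20. In zone 2, MA_140859g0010 was high in replicate 2 (40.3 CPM; the other 4 libraries had 28.4 to 30.98), MA_55521g0010 low in replicate 4 (194 CPM; 209 to 214), MA_530154g0010 high in replicate 3 (27.4 CPM; 7.04 to 11.01) and MA_82826g0010 high in replicate 1 (24.3 CPM; 18.9 to 19.9). In zone 3, replicate 2 was the high library each time: MA_114982g0010 had 30.6 CPM (3.28 to 10.6 in the others), MA_140859g0010 12.2 CPM (2.07 to 4.99) and MA_18599g0030 39.3 CPM (8.62 to 16.3). In stele 2, replicate 2 had 495 CPM of MA_458849g0010 (775 to 813 in the other 3) and 22.6 CPM of MA_95757g0010, which had no count in the other 3. What sets these libraries apart was not tested.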

How the results depend on the processing

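The 22 log2 fold changes named by rule kept their direction under all 359 alternative values computed; 333 stayed on the same side of the threshold and 26 no longer passed it. Of 146 alternative counts of called genes, 130 were within 1.5 times the reported count. The others were these. With only the 2 groups in the fit, the calls were 29 for zone 4 against zone 3, 6 for stele 2 against stele 1 and 7 for stele 3 against stele 2. DESeq2 called 31 for ground tissue against the QC area. Within lane 7 there were 5 calls for stele 1 against ground tissue, 3 for stele 2 against stele 1, 2 for stele 3 against stele 2 and 6 for stele 3 against stele 1; within lane 8 there were 26 for stele 1 against the QC area, 7 for stele 1 against ground tissue and 8 for stele 3 against stele 1. Single lanes and pairs of groups hold fewer libraries. Leaving out 1 library at a time gave 9 to 17 calls for stele 2 against stele 1 and 8 to 19 for stele 3 against stele 2. The rule kept 41 genes with a zone 2 minimum of 10 CPM, 59 with TMM-scaled values, and 57 to 80 with 1 library left out; without zone 3 replicate 2, 83 genes passed before the limit, and 62 of the 80 kept were among the 66. With total counts in place of TMM the median of all tested genes moved from -0.051 to -0.22 for stele 2 against stele 1, from -0.11 to -0.34 for stele 3 against stele 2 and from 0.037 to 0.14 for zone 4 against zone 3, and the medians of the 66 genes were 0.34, -1.42 and -1.86. The replicate block gave 28 calls for zone 3 against zone 1, 49 and 45 for zone 4 against zones 1 and 3, 20 for ground tissue and 42 for stele 1 against the QC area, 20 for stele 1 against ground tissue, and 10, 14 and 22 for stele 2 against stele 1, stele 3 against stele 2 and stele 3 against stele 1. Same-numbered libraries of zones 3 and 1 correlated at 0.0163 to 0.0718, and 3 of 5 libraries correlated best with their own number. Those of zones 3 and 2 correlated at 0.135 to 0.350, with 5 of 5 best with their own number; no comparison tested zone 2, but its libraries enter the shared estimate of the spread. With a coefficient of variation of 48.2% and 4 libraries per region, a difference between captured regions that misses the threshold is not shown to be absent.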
